A study of Mus musculus with 7 samples.

Results

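Blood coagulation, its inhibitors and fibrinolysis were examined in mouse liver through 44 genes, which encode clotting factors, the fibrinogen chains, proteins of the contact and kinin system, anticoagulants and the plasminogen system. The genes were chosen by function, with earlier results of these data known, and found by their symbols, all 44 among the 56691 genes of the table. Of these, 42 passed the filter on low counts that left 13683 genes for testing. The study examined septic acute liver injury, and the part analysed here is RNA sequencing of liver from 4 control mice and 3 mice given lipopolysaccharide (LPS), a component of the outer membrane of Gram-negative bacteria that is used to model the inflammation of sepsis. All mice were male animals of the inbred strain C57BL/6J with no genetic change named, bought at 8 weeks of age and housed for 2 weeks before the experiment. LPS mice received LPS at 10 mg/kg into the peritoneum and were killed 24 h later, while for control mice only the word control is given and what they were injected with is not given in the sources used here. Mice that also received sulforaphane were not analysed here. The counts of reads per gene summed to 14991022, 15096573, 15721944 and 18584140 in control mice 1 to 4 and to 20500391, 17095607 and 17821331 in LPS mice 1 to 3. Levels are given as CPM, counts per 1000000 of the library size after scaling by edgeR's TMM factors, and 3 counts correspond to 0.138 to 0.212 CPM in these libraries. LPS mice 2 and 3 stood closer to each other than any other pair of a group, with an SD of 0.102 for the log2 ratio of their well counted genes against 0.293 to 0.578 in the other 8 pairs, and calls that were lost when both were summed into 1 sample are named beside the genes concerned.

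Clotting begins when tissue factor meets factor VII, proceeds through a chain of proteases that ends in thrombin, and leads to the conversion of fibrinogen to fibrin, which factor XIII crosslinks. Antithrombin, tissue factor pathway inhibitor and the protein C pathway restrain these proteases, and plasmin, made from plasminogen, dissolves the fibrin. Hepatocytes make most of the circulating clotting factors and many of their inhibitors, whereas thrombomodulin, the protein C receptor and factor VIII come mainly from endothelial cells, and fibrinogen is a classical acute phase protein.

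At the level of single genes, LPS mice had 14 of the 42 tested genes higher and 11 lower at an adjusted p below 0.05 (edgeR's quasi-likelihood test with Benjamini-Hochberg adjustment over all 13683 genes), and 17 did not pass. The 25 genes that passed were 59.5% of those tested, where 26.3% of all genes passed. In the separate directions, 33.3% of the coagulation genes were higher and 26.2% were lower, beside 13.3% and 13% of all genes. With a change of over 2-fold also required, 12 genes were higher and 5 were lower, which is 28.6% and 11.9% beside 7.81% and 7.31% of all genes, and of these shares the last lay closest to its background. Of the 12, Serpina5, F13a1, Plaur and Procr had few counts in control mice and passed the filter through the LPS mice, so they could be kept only by being higher, and with at least 10 counts required in every sample 8 genes were higher by over 2-fold. Every LPS mouse lay above every control mouse in 15 of the tested genes and below every control mouse in 11, where 18.1% and 17.4% of all genes did so, and the groups overlapped in the other 16. The median log2 fold change was 0.11 over the 42 genes and -0.01 over all genes tested, a middle value between genes that went both ways. Without scaling factors, the split over all genes moved from 1824 higher and 1773 lower to 1350 higher and 2055 lower and the median of all genes to -0.13, and the coagulation genes then stood at 13 higher and 12 lower. Of the 25 calls, 17 held in each of the 7 fits that left out 1 mouse. In bulk liver, fewer cells of a type and less RNA per cell cannot be told apart in any of these results.

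**Figure D1:**
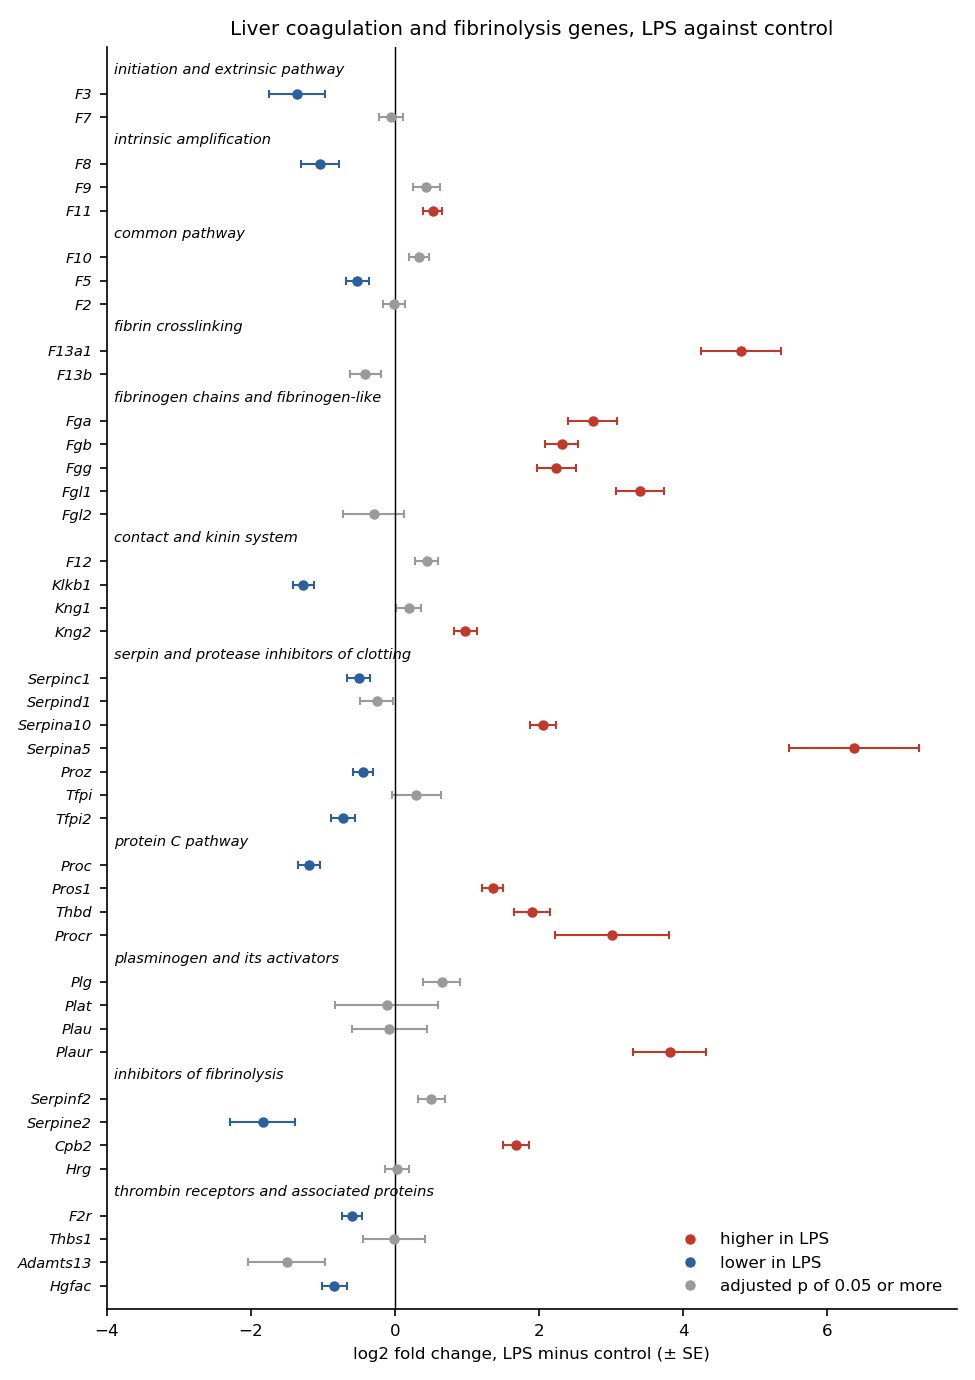
Log2 fold change between LPS and control mice (horizontal axis) of the 42 genes tested, grouped by role, with points for the estimates, bars for the SE, red and blue for genes higher and lower in LPS mice at an adjusted p below 0.05, and gray for the rest. Each role with 4 or more genes tested holds genes that passed and genes that did not, except the protein C pathway, where Proc fell and Pros1, Thbd and Procr rose, and the estimate for Serpina5 rests on 1 count in all control mice together.

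Levels were compared between genes per kb of exon (exon lengths from GENCODE M21, with the exons of all transcripts of a gene merged). In control mice the level ran from 2026 ± 613 CPM per kb (SD, n = 4) for Fgg to none counted for Serpinb2, and the genes fell into a group above 11 CPM per kb, which is made up of the secreted liver proteins together with the thrombin receptor F2r, and a group below 2 CPM per kb. The lower group holds tissue factor, factor VIII, thrombomodulin, the protein C receptor, the plasminogen activators and their receptor. The 3 fibrinogen chains were the most abundant of the 44 genes in both groups of mice. Fgl1 stood at place 14 in control mice and at place 4 in LPS mice, while Proc moved from place 12 to 18.

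**Figure D2:**
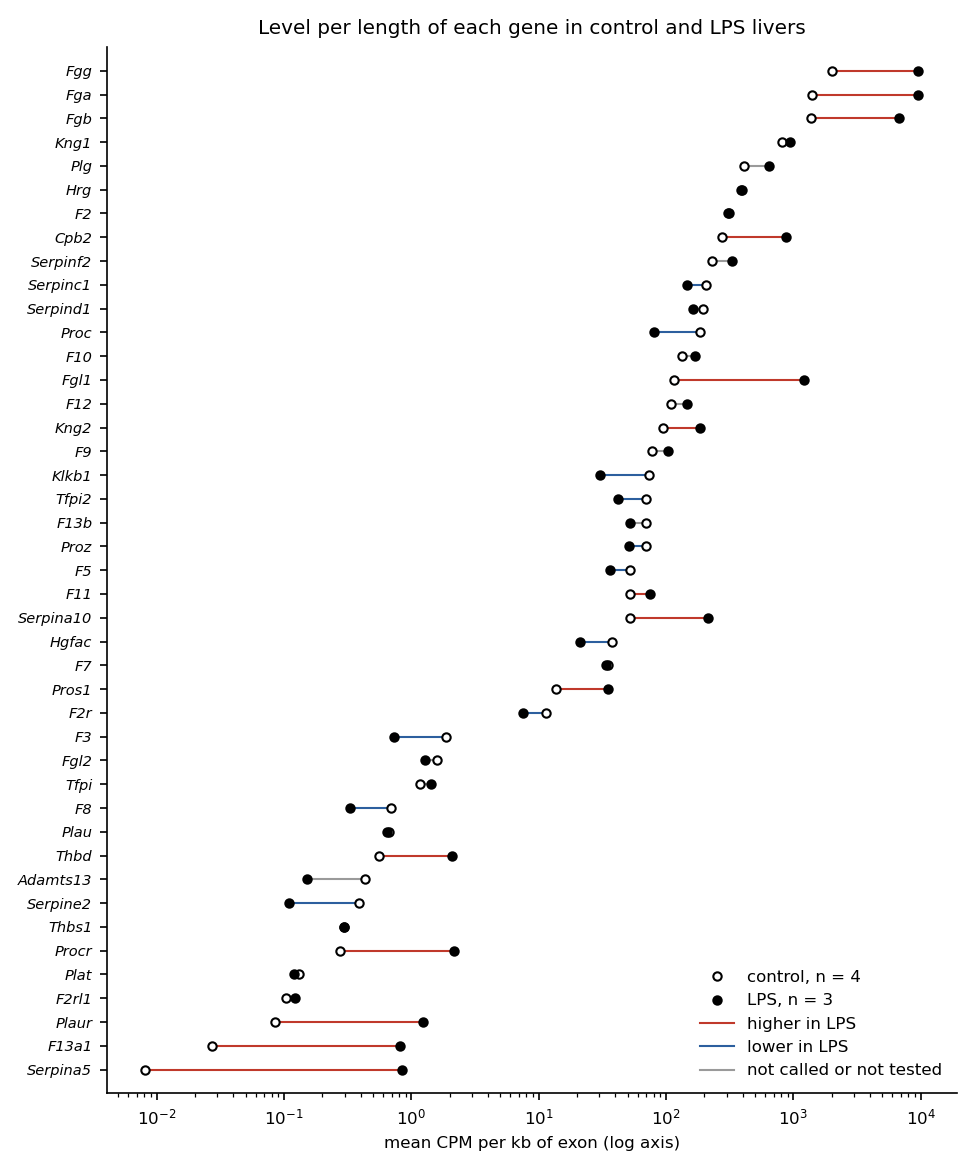
Mean CPM per kb of exon on a log axis in control mice (open circles, n = 4) and LPS mice (filled circles, n = 3) for the 43 genes with counts in both groups, ordered by the control level. Fgg, Fga and Fgb lie at the top in both groups, and the longest lines among the low genes belong to Serpina5, F13a1 and Plaur.

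Fibrinogen is a hexamer of paired alpha, beta and gamma chains. Fga (ENSMUSG00000028001), the alpha chain, had 2234, 3171, 6586 and 4999 CPM in control mice 1 to 4 and 21005, 32022 and 32355 CPM in LPS mice 1 to 3. The LPS mice lay far above the control mice with no overlap, and control mouse 1 was the lowest and control mouse 3 the highest of the controls. Fga rose to 28461 ± 6459 CPM (SD, n = 3) from 4248 ± 1936 CPM (SD, n = 4) (log2 fold change 2.74, SE 0.34, edgeR adjusted p = 7.15e-05). Fgb (ENSMUSG00000033831), the beta chain, had 4039, 4852, 6514 and 5365 CPM in control mice 1 to 4 and 19953, 28427 and 29132 CPM in LPS mice 1 to 3. LPS mouse 1 was the lowest of its group here and for the other chains, yet above all 4 control mice. Fgb rose with a log2 fold change of 2.31 (SE 0.23, edgeR adjusted p = 1.15e-05). Fgg (ENSMUSG00000033860), the gamma chain, had 2701, 3859, 5741 and 4659 CPM in control mice 1 to 4 and 15086, 22196 and 22852 CPM in LPS mice 1 to 3. The order of the control mice was the same as for the other chains, and the rise was of similar size (log2 fold change 2.24, SE 0.27, edgeR adjusted p = 5.20e-05). Together the chains took 0.847, 1.25, 1.96 and 1.67% of all counts in control mice 1 to 4 and 5.94, 7.51 and 7.61% in LPS mice 1 to 3. Of the counts of all 44 genes they made up 42.4% to 55.8% in the control group and 75.8% to 79.3% in the LPS group.

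The balance between the chains was read within each mouse from CPM per kb. Fga made up 24.0, 25.3, 33.0 and 31.4% of the sum of the 3 chains in control mice 1 to 4 and 35.9, 37.1 and 36.7% in LPS mice 1 to 3. The LPS mice were close to each other and above all controls, and the control mice ranged widely, with mice 1 and 2 lower than mice 3 and 4. Fgg made up 41.7, 44.2, 41.3 and 42.0% and 37.1, 36.9 and 37.2% in the same order, with the LPS mice below all controls, and the share of Fgb overlapped between the groups. Mitochondrially encoded genes took 23.7, 14.6, 7.48 and 8.96% of the counts in control mice 1 to 4 and 6.45, 3.83 and 3.94% in LPS mice 1 to 3. Control mouse 1, with the highest mitochondrial share, had the lowest level of each chain, and control mouse 3, with the lowest share among controls, had the highest. With the mitochondrial genes left out of the counts, each of the 42 genes tested kept its direction and its side of the threshold.

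Fgl1 (ENSMUSG00000031594), fibrinogen-like protein 1 or hepassocin, is a liver protein with a fibrinogen domain that does not form clots. It had 426, 919, 428 and 272 CPM in control mice 1 to 4 and 5111, 5567 and 5459.8 CPM in LPS mice 1 to 3. The LPS mice lay within a narrow band, while control mouse 2 stood well above the other controls and still far below the LPS mice. Its rise was the largest among the 5 fibrinogen and fibrinogen-like genes (log2 fold change 3.40, SE 0.33, edgeR adjusted p = 1.01e-05). Fgl2, a fibrinogen-like prothrombinase of macrophages and endothelial cells, did not pass the test (log2 fold change -0.30, SE 0.42, edgeR adjusted p = 0.663). LPS mouse 1 was the highest of all mice for Fgl2 with 9.30 CPM, and LPS mice 2 and 3 were the lowest with 2.83 and 2.49 CPM. Without LPS mouse 1 the log2 fold change of Fgl2 was -1.18 with an adjusted p of 0.0296, and over all alternatives the adjusted p ran from 0.0296 to 0.988.

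Fga, Fgb and Fgg are consecutive genes on mouse chromosome 3 in RefSeq's order of protein-coding genes (assembly GRCm38.p6), and since they rose together the 250 bases before the start of each are shown. They come from RefSeq's promoter table, which is of build GRCm38.p6 and holds windows for 34 of the 44 genes. Capitals mark the letters CTGGGA, the core of the element through which STAT3 is known to act on acute phase genes.
Fgg, chr3:83007474-83007723, plus strand: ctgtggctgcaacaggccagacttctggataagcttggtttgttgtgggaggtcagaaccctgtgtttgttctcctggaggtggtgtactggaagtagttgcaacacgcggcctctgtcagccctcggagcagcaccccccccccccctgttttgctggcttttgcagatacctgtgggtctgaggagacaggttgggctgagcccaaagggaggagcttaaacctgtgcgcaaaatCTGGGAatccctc
Fga, chr3:83025903-83026152, plus strand: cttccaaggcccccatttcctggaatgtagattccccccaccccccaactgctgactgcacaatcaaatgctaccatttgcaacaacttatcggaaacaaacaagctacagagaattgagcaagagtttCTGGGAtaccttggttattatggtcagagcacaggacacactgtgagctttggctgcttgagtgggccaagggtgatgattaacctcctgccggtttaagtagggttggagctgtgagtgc
Fgb, chr3:83049864-83050113, minus strand: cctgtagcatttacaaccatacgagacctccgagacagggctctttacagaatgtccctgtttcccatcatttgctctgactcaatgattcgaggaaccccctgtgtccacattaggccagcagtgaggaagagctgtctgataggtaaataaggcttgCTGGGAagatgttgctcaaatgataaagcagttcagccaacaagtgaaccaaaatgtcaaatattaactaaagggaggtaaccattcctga
Each of the 3 windows holds the letters once, beginning 13 bases before the start in Fgg, 121 in Fga and 91 in Fgb. Among all 32851 windows of the table, 27.0% hold CTGGGA. The 34 coagulation genes have 39 windows, since some have several starts, and 2 of these windows belong to Serpinb2, which was not tested. Of the others, 7 of 12 for genes that rose, 4 of 12 for genes that fell and 6 of 13 for genes that did not pass hold it, so it was not limited to genes that rose. TTGCNNAA, the letters of C/EBP sites, stands in 9.56% of all windows, in 7 of the 12 windows of genes that rose, in 1 of 12 of genes that fell and in 2 of 13 of genes that did not pass. GTTAAT, part of the HNF1 site, stands in 6.43% of all windows and in 2, 4 and 1 of these same windows. Each string was searched on both strands and none contains another. These are matches of letters, and binding was not measured.

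Tissue factor starts clotting. Its gene F3 (ENSMUSG00000028128) had 7.63, 4.35, 3.17 and 3.72 CPM in control mice 1 to 4 and 1.33, 2.32 and 1.87 CPM in LPS mice 1 to 3. All LPS mice lay below all control mice, and control mouse 1 was the highest. F3 fell (log2 fold change -1.36, SE 0.39, edgeR adjusted p = 0.0209), but on low counts, and the call was lost without control mouse 1, LPS mouse 1 or LPS mouse 3 (adjusted p = 0.0615, 0.0730 and 0.0649), within a range from 0.00467 to 0.0730 over all alternatives. Factor VII, the protease that tissue factor binds, is made by hepatocytes. F7 (ENSMUSG00000031443) had 49.1, 63.6, 70.4 and 75.9 CPM in control mice 1 to 4 and 55.0, 72.0 and 60.4 CPM in LPS mice 1 to 3. The groups overlapped, and F7 did not pass the test (log2 fold change -0.05, SE 0.17, edgeR adjusted p = 0.857). Tfpi (ENSMUSG00000027082), which encodes the inhibitor of tissue factor and factor VII, had 7.70, 6.68, 3.78 and 7.20 CPM in control mice 1 to 4 and 12.4, 5.15 and 5.66 CPM in LPS mice 1 to 3. LPS mouse 1 was the highest of all, LPS mice 2 and 3 lay within the control range, and the test was not passed (log2 fold change 0.29, SE 0.34, edgeR adjusted p = 0.572). Per kb, F3 stood at 2.14, 1.41, 1.81 and 1.12 times the level of Tfpi in control mice 1 to 4 and at 0.233, 0.973 and 0.713 times in LPS mice 1 to 3, with no overlap.

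The amplification loop of clotting runs through factors XI, IX and VIII. F8 (ENSMUSG00000031196), the cofactor made by endothelial cells, had 7.0, 5.74, 6.04 and 8.41 CPM in control mice 1 to 4 and 3.96, 2.96 and 2.92 CPM in LPS mice 1 to 3. The groups did not overlap and F8 fell (log2 fold change -1.05, SE 0.26, edgeR adjusted p = 0.0109). Without LPS mouse 2 or LPS mouse 3 its adjusted p was 0.0504 or 0.0519, within a range from 0.00419 to 0.0519 over all alternatives. F9, the protease that factor VIII assists, had 211 ± 56.9 CPM (SD, n = 4) in control mice and 285 ± 16.8 CPM (SD, n = 3) in LPS mice, and did not pass (log2 fold change 0.43, SE 0.19, edgeR adjusted p = 0.114). Control mouse 3 was within the LPS range for F9, and without it the adjusted p was 0.00850, in a range from 0.00850 to 0.304 over all alternatives. F11, which activates factor IX, rose slightly from 117 ± 4.80 to 167 ± 18.1 CPM (SD, n = 4 and n = 3) with no overlap (log2 fold change 0.52, SE 0.13, edgeR adjusted p = 0.0120). The call for F11 was lost without LPS mouse 2 (0.0834), without LPS mouse 3 (0.0598), with both summed (0.0661) and without scaling factors (0.0669), all adjusted p within a range from 0.00191 to 0.0834.

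In the common pathway, factor X with its cofactor factor V turns prothrombin into thrombin. F2 (ENSMUSG00000027249), prothrombin, had 1328, 1539, 1471 and 1361 CPM in control mice 1 to 4 and 1219, 1495 and 1514 CPM in LPS mice 1 to 3. The groups overlapped widely and the means were 1425 ± 97.8 and 1409 ± 165 CPM (SD, n = 4 and n = 3). F2 did not pass the test (log2 fold change -0.02, SE 0.16, edgeR adjusted p = 0.956). F10 did not pass either, although every LPS mouse lay above every control mouse (log2 fold change 0.33, SE 0.14, edgeR adjusted p = 0.109). F5 fell from 387 ± 65.2 to 269.8 ± 22.8 CPM (SD, n = 4 and n = 3) without overlap (log2 fold change -0.52, SE 0.16, edgeR adjusted p = 0.0314). Its call was lost without control mouse 3, control mouse 4 or any of the 3 LPS mice (adjusted p = 0.0572, 0.0564, 0.0998, 0.0849 and 0.0947) and with LPS mice 2 and 3 summed (0.0956), within a range from 0.0119 to 0.0998.

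Factor XIII crosslinks fibrin and is built from an A subunit, which carries the enzyme, and a B subunit, which carries the A subunit in plasma. F13a1 (ENSMUSG00000039109), the A subunit, known from platelets, monocytes and macrophages, had 0, 0.126, 0.366 and 0.242 CPM in control mice 1 to 4 and 5.43, 4.95 and 6.09 CPM in LPS mice 1 to 3. It was at or near 0 in all control mice, with at most 6 counts in any of them, and the LPS mice were close to each other. F13a1 rose (log2 fold change 4.80, SE 0.56, edgeR adjusted p = 4.15e-05). F13b, the B subunit made by hepatocytes, overlapped between the groups and did not pass (log2 fold change -0.41, SE 0.22, edgeR adjusted p = 0.189). Among cells known to hold the A subunit, the monocyte markers rose in 8 of 10 genes, where 13.3% of all genes were higher. Some of these markers passed the filter on low counts only through the LPS mice. The summed levels of the 10 markers were 49.6, 49.3, 49.0 and 30.9 CPM in control mice 1 to 4 and 249, 225 and 242 CPM in LPS mice 1 to 3. Lyz2 was the most abundant of them, and Cd14, Chil3 and Itgam had the smallest p, with 42.1 ± 13, 26.3 ± 3.03 and 41.5 ± 10.1 CPM (SD, n = 3) in LPS mice and under 1 CPM on average in control mice. Of the 12 platelet and megakaryocyte markers 5 could be tested, and beside the same 13.3% of all genes only Itgb3, also found on other cells, rose. It was the most abundant in LPS mice, and Clec1b was so in control mice. Their summed level was 13.6, 14.6, 9.58 and 10.4 CPM in control mice and 32.2, 21.6 and 21.8 CPM in LPS mice, Gp1bb had no counts in any mouse, and Pf4 and Ppbp did not pass. The part of these cells in the level of F13a1 was not tested.

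The contact system consists of factor XII, plasma prekallikrein and kininogen, which starts clotting on surfaces and releases bradykinin. Klkb1 (ENSMUSG00000109764), plasma prekallikrein, had 413, 397, 371 and 352 CPM in control mice 1 to 4 and 141, 171 and 165 CPM in LPS mice 1 to 3. The LPS mice were all below the lowest control mouse, and the spread within each group was small. Klkb1 fell (log2 fold change -1.27, SE 0.14, edgeR adjusted p = 3.53e-05) and kept its call in each fit that left out a mouse. By GENCODE M21, 43.2% of its exon bases are shared with the overlapping gene model Gm45753 on the same strand, which had between 0 and 8 counts, so reads from the shared part may be missing from both and the level of Klkb1 is uncertain. F12, which prekallikrein activates and is activated by, did not pass (log2 fold change 0.44, SE 0.16, edgeR adjusted p = 0.0650), but passed without control mouse 3 or LPS mouse 1 (adjusted p = 0.0322 and 0.0269), with DESeq2 (0.0461) and with genes over 1% of the counts kept out of the library size (0.0429), within a range from 0.0269 to 0.246. The mouse has a pair of kininogen genes. Kng2 rose from 257 ± 31.1 to 505 ± 78.0 CPM (SD, n = 4 and n = 3) without overlap (log2 fold change 0.98, SE 0.16, edgeR adjusted p = 6.48e-04). Kng1, which was far more abundant, did not pass (log2 fold change 0.19, SE 0.17, edgeR adjusted p = 0.456). Per kb, Kng1 stood at 10.2, 8.94, 7.74 and 8.33 times the level of Kng2 in control mice 1 to 4 and at 5.19, 5.06 and 4.99 times in LPS mice 1 to 3. Only 4.93% of the 100-base windows of Kng1 transcripts and 5.29% of those of Kng2 occur in transcripts of another gene, so most of their reads can be told apart.

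Several of the genes are neighbors with no protein-coding gene between them in the GRCm38.p6 order. F11 and Klkb1, which lie side by side on chromosome 8 and stem from a common ancestor, changed in opposite directions, although F11 did not pass without scaling factors. Per kb, F11 stood at 0.677, 0.689, 0.694 and 0.803 times the level of Klkb1 in control mice 1 to 4 and at 2.46, 2.52 and 2.43 times in LPS mice 1 to 3, with no overlap, and the height of these ratios depends on the uncertain level of Klkb1. Of Hrg, Kng2 and Kng1 on chromosome 16 only the middle gene passed the test, and of F7, F10 and Proz on chromosome 8 only Proz did, and it did not with no filter on low counts. The fibrinogen chains were the only neighbors among the 44 genes that all passed in 1 direction.

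Among the inhibitors of clotting, antithrombin is the main one in plasma. Serpinc1 (ENSMUSG00000026715), its gene, had 1771, 1715, 1849.6 and 1729 CPM in control mice 1 to 4 and 1044, 1340.1 and 1358 CPM in LPS mice 1 to 3. The control mice were close together and above all LPS mice, of which mouse 1 was the lowest. Serpinc1 fell by 0.50 on the log2 scale (SE 0.16, edgeR adjusted p = 0.0356). The call was lost without control mouse 3, control mouse 4 or any of the 3 LPS mice (adjusted p = 0.0561, 0.0571, 0.106, 0.0902 and 0.0806), with LPS mice 2 and 3 summed (0.0911), with the replicate number as a block (0.0525) and with no filter on low counts (0.0611), within a range from 0.00465 to 0.106. On the opposite strand, exons of Zbtb37 cover 34.4% of the Serpinc1 exon bases in GENCODE M21, and whether strand was used in counting is not given in the sources used here. Zbtb37 had between 85 and 255 counts per mouse, and Serpinc1 had between 20825 and 35769. Serpind1, heparin cofactor II, did not pass (log2 fold change -0.26, SE 0.23, edgeR adjusted p = 0.459).

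Serpina10 (ENSMUSG00000061947), the inhibitor of factor Xa that works with protein Z, had 154, 187, 214 and 172 CPM in control mice 1 to 4 and 556, 845 and 858 CPM in LPS mice 1 to 3. All LPS mice lay well above the controls and LPS mice 2 and 3 were higher than LPS mouse 1. Serpina10 rose with the smallest p of the 44 genes (log2 fold change 2.05, SE 0.18, edgeR adjusted p = 4.54e-06). Proz, which encodes its cofactor protein Z, went the other way, from 385 ± 30.3 to 282 ± 13.9 CPM (SD, n = 4 and n = 3) without overlap (log2 fold change -0.45, SE 0.14, edgeR adjusted p = 0.0295). The call for Proz was lost without any of the 3 LPS mice (adjusted p = 0.0714, 0.139 and 0.0825), with mice 2 and 3 summed (0.112) and with no filter on low counts (0.0713), within a range from 0.00696 to 0.139. Serpina5 (ENSMUSG00000041550), the protein C inhibitor, had 1, 0, 0 and 0 counts in control mice 1 to 4 and 55, 27 and 20 counts in LPS mice 1 to 3, which is 2.53, 1.74 and 1.24 CPM in the latter. It was detected in each LPS mouse and nearly absent from controls, and it passed the test (edgeR adjusted p = 2.10e-04). With 1 count in all controls together, the ratio of the scaled counts was 128 with an exact 95% counting interval of 22.5 to 5120, which covers counting error only, and without control mouse 1 the controls held no count. Tfpi2, an inhibitor of plasmin and of tissue factor with factor VII, fell from 122 ± 19.2 to 73.9 ± 11.9 CPM (SD, n = 4 and n = 3) without overlap (log2 fold change -0.73, SE 0.17, edgeR adjusted p = 0.00684). Without LPS mouse 3 its adjusted p was 0.0533, within a range from 4.68e-04 to 0.0533.

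In the protein C pathway, thrombin bound to thrombomodulin activates protein C on its receptor, and activated protein C with protein S cleaves factors V and VIII. Each of its 4 genes passed the test, 1 lower and 3 higher, except that Procr did not with DESeq2 or without LPS mouse 1. Proc (ENSMUSG00000024386), protein C, had 478, 528, 434 and 394 CPM in control mice 1 to 4 and 191, 203 and 207 CPM in LPS mice 1 to 3. The LPS mice lay in a narrow band below all controls. Proc fell (log2 fold change -1.19, SE 0.15, edgeR adjusted p = 8.62e-05). Pros1 (ENSMUSG00000022912), protein S, had 50.0, 61.2, 57.4 and 56.8 CPM in control mice 1 to 4 and 118, 159 and 155 CPM in LPS mice 1 to 3. It was higher in all LPS mice than in any control, and it rose (log2 fold change 1.36, SE 0.15, edgeR adjusted p = 2.49e-05). Within each mouse, Proc stood per kb at 15.8, 14.2, 12.5 and 11.4 times the level of Pros1 in control mice 1 to 4 and at 2.66, 2.10 and 2.2 times in LPS mice 1 to 3. The 2 sets of ratios did not overlap, and Proc remained above Pros1 in every mouse.

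**Figure D3:**
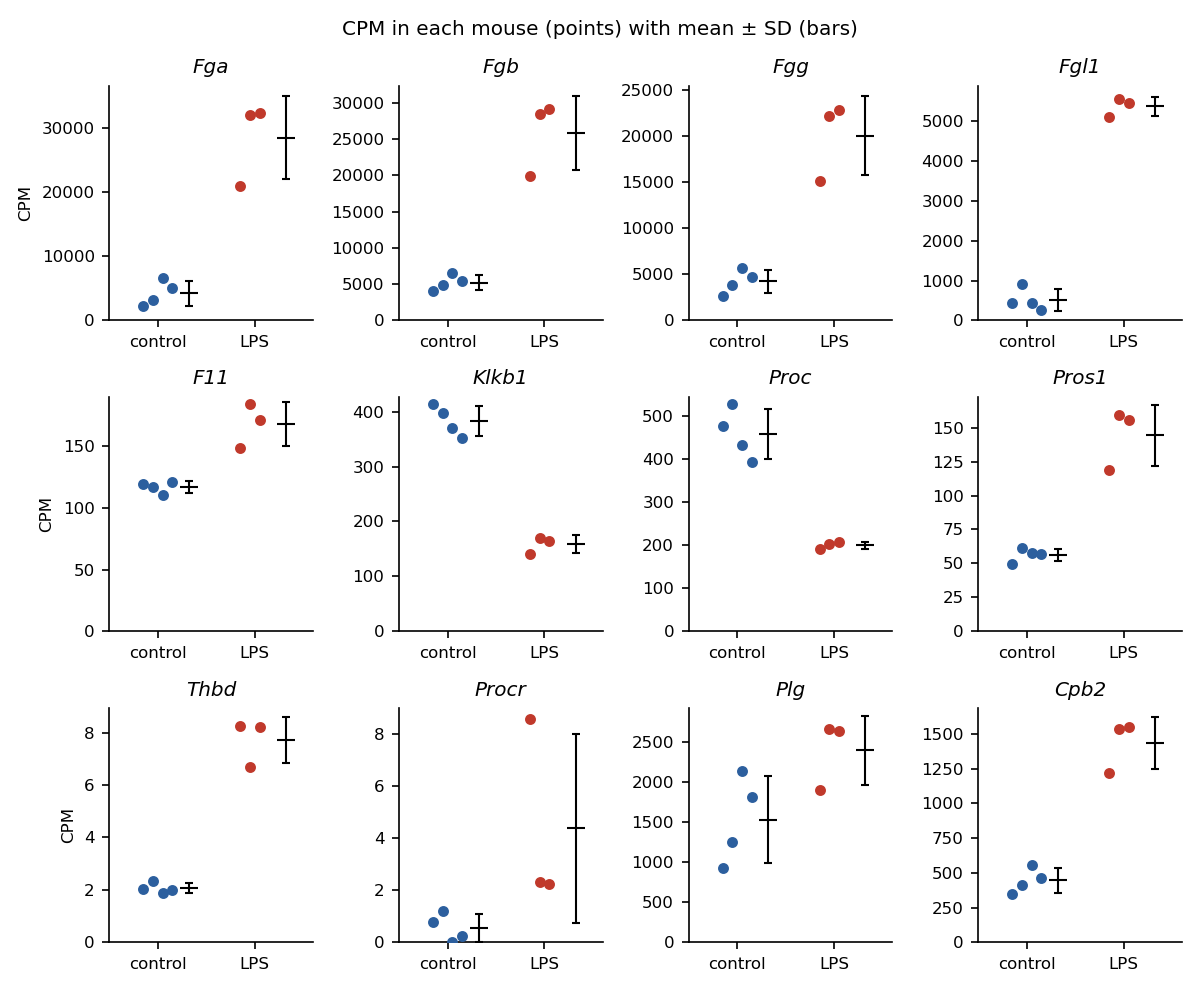
CPM of 12 genes in each of 4 control mice (blue) and 3 LPS mice (red), ordered by mouse number within a group, with the mean and SD beside the points and a separate linear axis from 0 for each gene. The groups overlap only for Plg, and for Procr LPS mouse 1 stands apart from LPS mice 2 and 3.

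Thbd (ENSMUSG00000074743), thrombomodulin, had 2.05, 2.33, 1.89 and 1.98 CPM in control mice 1 to 4 and 8.24, 6.69 and 8.21 CPM in LPS mice 1 to 3. Control mice were almost alike, every LPS mouse was far above them, and Thbd rose (log2 fold change 1.9, SE 0.26, edgeR adjusted p = 1.42e-04). Procr (ENSMUSG00000027611), the endothelial protein C receptor, had 0.777, 1.2, 0 and 0.242 CPM in control mice 1 to 4 and 8.56, 2.32 and 2.24 CPM in LPS mice 1 to 3. LPS mouse 1 was much higher than LPS mice 2 and 3, which were still above all controls. Procr rose (log2 fold change 3.01, SE 0.79, edgeR adjusted p = 0.0137), but without LPS mouse 1 the log2 fold change was 2.05 and the adjusted p 0.121, while without control mouse 2 the log2 fold change was 3.73, and DESeq2 gave an adjusted p of 0.0518, within a range from 1.34e-08 to 0.121. The 12 endothelial markers, of cells in which both receptors are known to be made, did not rise together, as 2 were higher (Lyve1 and Pecam1), 3 were lower (Clec4g, Ptprb and Kdr) and 7 did not pass, beside 13.3% and 13% of all genes higher and lower. Their summed level was 203, 251, 157 and 192 CPM in control mice 1 to 4 and 228, 134 and 127 CPM in LPS mice 1 to 3, with Ptprb the most abundant in control mice, Pecam1 in LPS mice and none at 0. The call for Kdr was lost without control mouse 2 or 4 or LPS mouse 2 or 3 (adjusted p = 0.0693, 0.0542, 0.0752 and 0.103, in a range from 0.00911 to 0.103 with 1 mouse left out). The largest falls and rises among them were log2 fold changes of -4.43 for Clec4g (edgeR adjusted p = 2.23e-06) and 1.76 for Lyve1 (edgeR adjusted p = 2.96e-04). LPS mouse 1, highest for Procr, Tfpi and Fgl2, was the highest LPS mouse in this sum, below control mouse 2, and the highest of all 7 mice in that of the 12 Kupffer cell and macrophage markers, with 751, 168 and 173 CPM in LPS mice 1 to 3 and 154, 216, 200.1 and 135 CPM in control mice. Of the Kupffer cell and macrophage markers 5 were higher, led by Marco, Cd68 and Adgre1, and 1 was lower, Clec4f, while Marco alone had 2.47, 5.55, 4.33 and 2.37 CPM in control mice 1 to 4 and 409, 66.4 and 65.5 CPM in LPS mice 1 to 3. Marco was the most abundant by the mean of all 7 mice, and Clec4f was so in control mice, and without LPS mouse 1 the log2 fold changes of Marco, Cd68 and Clec4f moved from 5.62, 2.23 and -2.13 to 4.17, 1.59 and -3.09. The part of these cells in the levels of Procr, Tfpi and Fgl2 was not tested.

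Since hepatocytes make protein C, prekallikrein and antithrombin, the hepatocyte markers are given beside their falls. Of the 11 that were found, 6 were lower, none was higher and 5 did not pass, where 13% of all genes were lower and 13.3% higher. Their median log2 fold change was -0.69, and none was at 0. Their summed level was 78881, 78619.6, 100244 and 86947 CPM in control mice 1 to 4 and 50274, 54646 and 54534 CPM in LPS mice 1 to 3, with no overlap. The most abundant, Alb, had a log2 fold change of -0.93 (edgeR adjusted p = 0.0137, but 0.0618 without LPS mouse 2 and 0.0642 without LPS mouse 3, in a range from 0.00898 to 0.0642 with 1 mouse left out), and the lower markers with the smallest p were Ttr (-1.23), Apoa2 (-1.71) and Asgr2 (-0.69). Of the 5 that did not pass, 4 lay in the other direction, namely Cps1 (log2 fold change 0.62, edgeR adjusted p = 0.0527), for which every LPS mouse was above every control mouse, Ahsg (0.28), Asgr1 (0.22) and Apob (0.14). The part of the lower markers in the falls of single clotting genes was not tested.

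Plasminogen is the precursor of plasmin, the protease that dissolves fibrin. Plg (ENSMUSG00000059481) had 928, 1251, 2132 and 1809.9 CPM in control mice 1 to 4 and 1894, 2658 and 2629 CPM in LPS mice 1 to 3. LPS mouse 1 lay within the control range, between control mice 4 and 3, while LPS mice 2 and 3 were above all controls, and the control mice differed by more than 2-fold among themselves. Plg did not pass (log2 fold change 0.65, SE 0.26, edgeR adjusted p = 0.0861). It passed without control mouse 3 (0.0232), with DESeq2 (0.0350), with the replicate number as a block (0.0191) and with no filter on low counts (0.00652), within a range from 0.00652 to 0.245 for the adjusted p. The activators of plasminogen had low levels in liver, with Plat at 0.820 ± 0.505 and 0.744 ± 0.149 CPM and Plau at 1.59 ± 0.704 and 1.51 ± 0.670 CPM (SD, n = 4 controls and n = 3 LPS mice). Neither passed, with log2 fold changes of -0.11 (SE 0.71) and -0.08 (SE 0.52), and with these SEs a difference in either direction cannot be told from none. Plaur (ENSMUSG00000046223), the receptor that holds urokinase on leukocytes and other cells, had 0.212, 0.315, 0.122 and 0.242 CPM in control mice 1 to 4 and 4.14, 2.96 and 2.55 CPM in LPS mice 1 to 3. It was near 0 in all controls and clearly counted in all LPS mice, and it rose (log2 fold change 3.81, SE 0.51, edgeR adjusted p = 1.31e-04). Of the 12 neutrophil markers, of cells known to carry this receptor, 8 could be tested and these were higher, beside 13.3% of all genes. Some of these markers passed the filter on low counts only through the LPS mice. The summed levels of the markers were 5.23, 4.60, 2.32 and 3.43 CPM in control mice 1 to 4 and 222, 162 and 161 CPM in LPS mice 1 to 3. S100a9 was the most abundant with 82.8 ± 17.1 CPM (SD, n = 3) in LPS mice, S100a8 and Retnlg were the others among the smallest p, and Ly6g had no counts in control mice and 7, 0 and 1 in LPS mice. The part of these cells in the level of Plaur was not tested.

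Fibrinolysis is held back by antiplasmin, by a carboxypeptidase that trims fibrin and by inhibitors of the activators. Cpb2 (ENSMUSG00000021999), the carboxypeptidase known as thrombin-activatable fibrinolysis inhibitor, had 349, 414, 557 and 465 CPM in control mice 1 to 4 and 1214, 1531 and 1552 CPM in LPS mice 1 to 3. The lowest LPS mouse had more than 2 times the level of the highest control mouse, and Cpb2 rose (log2 fold change 1.68, SE 0.18, edgeR adjusted p = 2.41e-05). Per kb, Plg stood at 1.17, 1.33, 1.68 and 1.71 times the level of Cpb2 in control mice 1 to 4. In LPS mice 1 to 3 the ratio was 0.685, 0.762 and 0.744, with no overlap. In CPM, without division by length, Plg stood at 1.56, 1.74 and 1.69 times the level of Cpb2 in LPS mice 1 to 3. Which of the pair was the more abundant in LPS mice therefore depends on the exon lengths used. Serpinf2, antiplasmin, did not pass (log2 fold change 0.50, SE 0.19, edgeR adjusted p = 0.0702), with an adjusted p of 0.0186 without LPS mouse 1, 0.0381 with DESeq2, 0.0351 with the replicate number as a block, 0.0306 with no filter on low counts, 0.0496 with genes over 1% of the counts kept out of the library size, and a range from 0.0186 to 0.271 over all alternatives. Serpine2 (ENSMUSG00000026249), protease nexin-1, an inhibitor of thrombin and of plasminogen activators, had 4.31, 2.77, 3.36 and 2.42 CPM in control mice 1 to 4 and 0.552, 1.42 and 0.746 CPM in LPS mice 1 to 3. All LPS mice lay below all controls, and Serpine2 fell (log2 fold change -1.84, SE 0.45, edgeR adjusted p = 0.00998). Hrg, histidine-rich glycoprotein, which binds plasminogen and heparin, did not pass (log2 fold change 0.03, SE 0.17, edgeR adjusted p = 0.931). Serpinb2, plasminogen activator inhibitor 2, was not tested, with no counts in control mice and 2, 0 and 1 in LPS mice, which is no more than the floor of 3 counts in any mouse.

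The remaining genes are receptors of thrombin and proteins that act around the clot. F2r, the main thrombin receptor, fell from 37.8 ± 3.49 to 24.9 ± 0.755 CPM (SD, n = 4 and n = 3) without overlap (log2 fold change -0.60, SE 0.14, edgeR adjusted p = 0.00620). Hgfac, a protease that thrombin activates and that in turn activates hepatocyte growth factor, fell from 128 ± 25.4 to 71.7 ± 9.87 CPM (SD, n = 4 and n = 3), again without overlap (log2 fold change -0.84, SE 0.18, edgeR adjusted p = 0.00395). Adamts13, the protease that trims von Willebrand factor, did not pass (log2 fold change -1.50, SE 0.53, edgeR adjusted p = 0.0559). Control mouse 3 was within reach of the LPS mice for it with 14 counts, and without that mouse the adjusted p was 0.0155, with DESeq2 it was 0.0360 and without scaling factors 0.0431, and over all alternatives the values ran from 0.0155 to 0.170. Thbs1, thrombospondin 1, a protein of platelets and matrix, did not pass (log2 fold change -0.02, SE 0.43, edgeR adjusted p = 0.985). F2rl1, protease-activated receptor 2, was not tested, with 12, 1, 2 and 2 counts in control mice 1 to 4 and 0, 6 and 10 in LPS mice 1 to 3.

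Further genes of hemostasis, taken from a separate list of 25, were mostly higher where they changed. Of 21 tested, 12 rose and 1 fell, where 13.3% of all genes were higher and 13% lower, with a median log2 fold change of 0.69 beside -0.01 for all genes. A2m, a broad protease inhibitor, had 2.12, 1.2, 1.65 and 0.773 CPM in control mice 1 to 4 and 635, 785 and 775 CPM in LPS mice 1 to 3. The control mice were near 0 and the LPS mice close to each other (log2 fold change 9.02, SE 0.28, edgeR adjusted p = 5.84e-10). Fn1, fibronectin, rose with a log2 fold change of 1.83, and Vtn, vitronectin, the most abundant of the list, rose with 1.24. The fall of Masp2, a protease of the lectin pathway of complement (-0.44, edgeR adjusted p = 0.0385), was not called without control mouse 4 or any of the LPS mice (0.0792, 0.153, 0.0635 and 0.0957, in a range from 0.0376 to 0.153 with 1 mouse left out). Bdkrb1, a bradykinin receptor, had no counts in any mouse.

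Genes that serve the maturation of clotting factors were taken as a further list. Of 12 in the vitamin K cycle and in factor processing, 6 rose, where 13.3% of all genes were higher. The 2 that fell are near the background of 13% of all genes, and the median log2 fold change was 0.44. Vkorc1, the vitamin K epoxide reductase, fell (-0.74, SE 0.17) as did the proprotein convertase Pcsk6 (-0.91, SE 0.17). Aifm2, a vitamin K reductase, rose (1.53, SE 0.14), as did Mcfd2, which helps export factors V and VIII (0.90, SE 0.15), Asph (0.70, SE 0.15) and P4hb, the most abundant (0.88, SE 0.20). Of 16 liver transcription regulators, 4 rose and 3 fell, with a median of 0.24, and against 13.3% and 13% of all genes the 3 that fell are near the background. Stat3 (1.66), Cebpd (2.34) and Cebpb (0.92) rose, as did Hnf4a, the most abundant (0.74), all as log2 fold changes, although Hnf4a did not pass without LPS mouse 2 or 3 (edgeR adjusted p = 0.0581 and 0.0506, in a range from 0.00438 to 0.0581 with 1 mouse left out). The 3 falls each depended on single mice. Cebpa (-0.53) did not pass without LPS mouse 2 or 3 (edgeR adjusted p = 0.0545 and 0.0553, in a range from 0.0140 to 0.0553), and Nr0b2 (-0.80) without control mouse 2 or LPS mouse 1 or 3 (0.0580, 0.0709 and 0.0840, in a range from 0.00431 to 0.0840). Onecut1 had 4.24, 3.03, 25.8 and 7.49 CPM in control mice 1 to 4 and 2.12, 1.87 and 2.67 CPM in LPS mice 1 to 3. Control mouse 3 stood far above the others, and without it the log2 fold change went from -2.19 to -1.16, and the call was lost without any of the LPS mice (edgeR adjusted p = 0.0655, 0.0819 and 0.0604, in a range from 0.0105 to 0.0819). A list of genes of IL-6, IL-1 and TNF signaling shares Stat3 with the regulators above and holds 1 gene that passed the filter on low counts only through the LPS mice. Of its 10 genes tested 8 rose and 1 fell, beside 13.3% and 13% of all genes, with a median of 1.87. The 1 that fell is near the background. The receptor gene Il1r1 rose by 2.30 on the log2 scale, Il1b by 3.21 and Socs3 by 2.90, while the receptor gene Lifr fell by 3.13.

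Markers of other liver cells are given for completeness. Of 12 stellate cell and fibroblast markers 1 rose (Rgs5) and 4 fell, beside 13.3% and 13% of all genes. Of the 4 that fell, Reln kept its call without any 1 mouse. Dcn was the most abundant of the markers, and the summed level was 629.7, 451, 276 and 439 CPM in control mice 1 to 4 and 433, 341 and 326 CPM in LPS mice 1 to 3. Of 8 cholangiocyte and mesothelial markers tested, about as among all genes (13.3% and 13%), 1 rose (Sox9) and 1 fell (Upk3b, with a log2 fold change of -2.61 and -3.28 without LPS mouse 1), with Spp1 the most abundant and summed levels of 285, 119.8, 75.6 and 122 CPM and 141, 166 and 159 CPM. Of 5 red blood cell markers tested 4 fell, beside 13% of all genes, and of these Alas2 kept its call without any 1 mouse. Hbb-bs was the most abundant of the markers, and their sum was 308, 183, 232 and 179 CPM and 136, 53.8 and 53.7 CPM in the same order, with the LPS mice below all controls. No coagulation gene was tested against these sums.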

How the data were processed

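The authors deposited raw counts of reads per gene, not normalized, for liver of 7 mice, and the submitters' processing notes name cutadapt 1.9.1, HISAT2 2.2.1, HTSeq 0.6.1, DESeq2 1.34.0 and build GRCm39. Libraries were strand-specific and made from polyadenylated RNA. The annotation release and how HTSeq handled reads shared by genes are not given in the sources used here. In R 4.3.3, edgeR 4.0.16 was used with filterByExpr, TMM scaling and the quasi-likelihood test, with LPS against control in the model and p adjusted by Benjamini-Hochberg over 13683 genes. Total counts ran from 14991022 to 20500391 per mouse. The SE was derived from the F statistic. Genes were called at an adjusted p below 0.05, and a second rule added an absolute log2 fold change above 1. All 44 genes are named. Values in every mouse are given for each gene that passed the second rule and for F2, F3, F7, Fga, Fgb, Fgg, Serpinc1, Proc, Thbd, Plg and Tfpi. In other lists at most 3 called genes with the smallest p in each direction and the most abundant are named, except that Bdkrb1, Gp1bb, Pf4, Ppbp, Ly6g, Gm45753, Cps1, Ahsg, Asgr1, Apob and Clec1b were named after their values were seen, and some genes of these lists are not reported here. The members and lists were chosen with earlier results of these data known. The hepatocyte symbol Tf matched no gene of the table. Exon lengths, overlaps and transcripts came from GENCODE M21, matched by gene identifier for all 44 genes, and gene order and promoters from RefSeq, GRCm38.p6. The method was tested on simulated counts. Alternatives were DESeq2 1.42.0, RLE factors, no scaling factors, mitochondrial genes left out, library sizes without genes above 1% of the counts, no filter on low counts, a minimum of 10 counts in each library, an adjusted p below 0.01, the replicate number as a block, LPS mice 2 and 3 summed, and each mouse left out.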

Additional observations from a re-analysis of the deposited data

Results flagged for a closer look

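Serpina5 in control mouse 1 stood apart from the other control mice, at 0.0707 CPM against 0 CPM in the other 3, which is 1 count. Of 42 genes checked in the control group this was the only one with such a gap between 1 mouse and the others, and chance gives about 1 in 20.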

How the results depend on the processing

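The 14 genes called higher became between 10 and 17, and the 12 higher by over 2-fold between 8 and 13, over all alternatives. The 11 genes called lower became 6 at an adjusted p below 0.01 and between 5 and 11 with 1 mouse left out, with 7 without LPS mouse 2 and 5 without LPS mouse 3. The 5 lower by over 2-fold became 3 at an adjusted p below 0.01 and between 3 and 6 with 1 mouse left out, with 3 without LPS mouse 3. Fits without a mouse rest on fewer samples, and other causes were not tested. Replicate numbers are shared between the groups only as numbers: deviations of same-numbered mice correlated at 0.218, -0.0587 and 0.0882, and not every mouse correlated best with its own number. With the replicate number as a block, which leaves out control mouse 4, 16 genes were higher and 10 lower, 12 and 4 of them by over 2-fold, Serpinc1 did not pass (adjusted p = 0.0525), and Plg and Serpinf2 did (0.0191 and 0.0351). Signs changed only in genes that did not pass. F7 became 0.0344 and Plau 0.13 under the block, Hrg -0.11 without scaling factors and -0.0132 with LPS mice 2 and 3 summed, and Thbs1 0.0154 with them summed, all as log2 fold changes. With 1 mouse left out, the log2 fold change lay between -0.17 and 0.0351 for F7, -0.0684 and 0.0824 for F2, -1.18 and 0.0170 for Fgl2, -0.23 and 0.52 for Tfpi, -0.51 and 0.13 for Plat, -0.42 and 0.21 for Plau, -0.0540 and 0.13 for Hrg, and -0.20 and 0.19 for Thbs1. Depth limits the genes near 1 CPM, where a few counts decide a value, and with at least 10 counts in every sample 36 of the 42 genes remained to be fitted. All p-values rest on 7 mice from 1 experiment and on the labels that name LPS mice 2 and 3 as separate animals.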
